A study of Mus musculus with 2 samples.

Results

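The genes described here are 38 mouse genes of glycolysis and of the transcriptional response to low oxygen. They were chosen by name as transporters, enzymes, regulators and hypoxia targets. No cut on their measured values was used, but earlier results of these data were known when they were chosen. All 38 were found among the 55416 genes of the count table. Poly(A) RNA had been sequenced from a tumor labelled intracranial and a tumor labelled extracranial, with 1 library each, named by these labels. Both came from mice of a C57BL/6 background that carried a Dppa3-IRES-Cre knock-in, which drives Cre in primordial germ cells, and a floxed Smarcb1 allele (Smarcb1 fl/+), and both were classified as MYC. The second Smarcb1 allele of these mice is not floxed and has to be lost by chance in a cell that goes on to form a tumor. For this mouse model the paper shows stained tumors adjacent to the trigeminal nerve and in the maxillary region. Whether these were the sequenced tumors is not stated there, so only the labels are used here. Each location was 1 tumor and no normal tissue was sequenced here, so no difference below has a replicate check, no p-value is given, and location cannot be told apart from animal, dissection or library.

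Glycolysis splits glucose into pyruvate in the cytosol, and many tumors run it fast even with oxygen at hand, with lactate as the product that leaves the cell. When oxygen is low, the prolyl hydroxylases that mark the HIF alpha subunits for destruction by the VHL ubiquitin ligase slow down, the alpha subunits pair with ARNT, and the pair binds short DNA motifs near genes for glucose uptake, glycolytic enzymes, pH control and vessel growth. Rhabdoid tumors arise on the loss of SMARCB1, a part of the SWI/SNF remodellers of chromatin, and MYC, after which the class of both tumors is named, is a known activator of many of the same glycolytic genes.

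The libraries held 34545846 counts (intracranial) and 26915696 counts (extracranial). Smarcb1 itself, targeted in these mice, was at 365 and 530 counts, or 10.5 and 19.8 CPM (counts over the TMM-scaled library size, in the usual unit). The libraries differed widely in markers of other cells. Of 10 keratinocyte genes all 10 were higher in the intracranial library by more than 2-fold, with a summed level of 21530 CPM against 3.10 CPM, led by Krt13, Krt4 and Krt14, and 6 of them, Krt5, Krt6a, Krt1, Dsg3, Trp63 and Sprr1b, were at 0 in the extracranial library. The label does not state a source of these keratinocyte transcripts, and which cells made them was not tested. Neutrophil genes summed to 740 and 58.7 CPM. Of the 7 with enough counts, 6 were higher in the intracranial library by an interval beyond 2-fold, S100a8 and S100a9 among them. The remaining 1 was higher in the extracranial library by an interval beyond 2-fold. Which cells made the transcripts of this list was not tested. Macrophage genes summed to 5853 and 13227 CPM, with 10 of 10 higher in the extracranial library, 8 of them by an interval beyond 2-fold, and Lyz2, C1qa and C1qb the most abundant there. The other lists were smaller or less split: skeletal muscle summed to 55.7 and 12.8 CPM, astrocytes to 249 and 53.8 CPM with Gja1 as most of it, neurons to 87.4 and 142 CPM, endothelium to 247 and 405 CPM, red cells to 41.3 and 107 CPM, fibroblasts to 4602 and 5982 CPM, and proliferation genes to 463 and 657 CPM. The part of these cells in the differences below was not tested, and in bulk libraries fewer cells of a type and less RNA per cell cannot be told apart.

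The 38 genes were on the whole lower in the extracranial library. Their summed level was 7036 CPM in the intracranial and 4991 CPM in the extracranial library, which is 0.708% and 0.496% of all counts. The median log2 ratio, extracranial over intracranial, was -0.62 over the 38 genes, against -0.04 over all 21977 genes with 10 or more counts and -0.01 over the genes with 100 or more, a minimum that all 38 passed. A gene was called where the whole exact 95% interval of its ratio lay beyond 2-fold. Of the 38 genes, 8 (21.1%) were called higher in the intracranial library, where 9.77% of all tested genes were, and 2 (5.26%) were called higher in the extracranial library, where 5.86% of all tested genes were. The 8 were Slc16a3, Aldoc, Eno2, Egln3, Ankrd37, Ndrg1, Adm and P4ha2, and the 2 were Ldhb and Pfkfb4. The other 28 were called in neither direction. Most of these 28 nonetheless differed beyond counting error by less than 2-fold: over all 38, the interval lay wholly below equality for 27 genes (71.1%, against 32.2% of all tested genes) and wholly above it for 9 (23.7%, against 29.2%), and it spanned equality for Hk2 and Arnt. Over the genes with 100 or more counts, the interval lay below equality for 36.0% and above it for 35.7%. The share of genes called in either direction was 15.6% over all tested genes. Over those with 100 or more counts it was 15.8%, of which 9.58% were higher in the intracranial and 6.21% higher in the extracranial library.

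**Figure D1:**
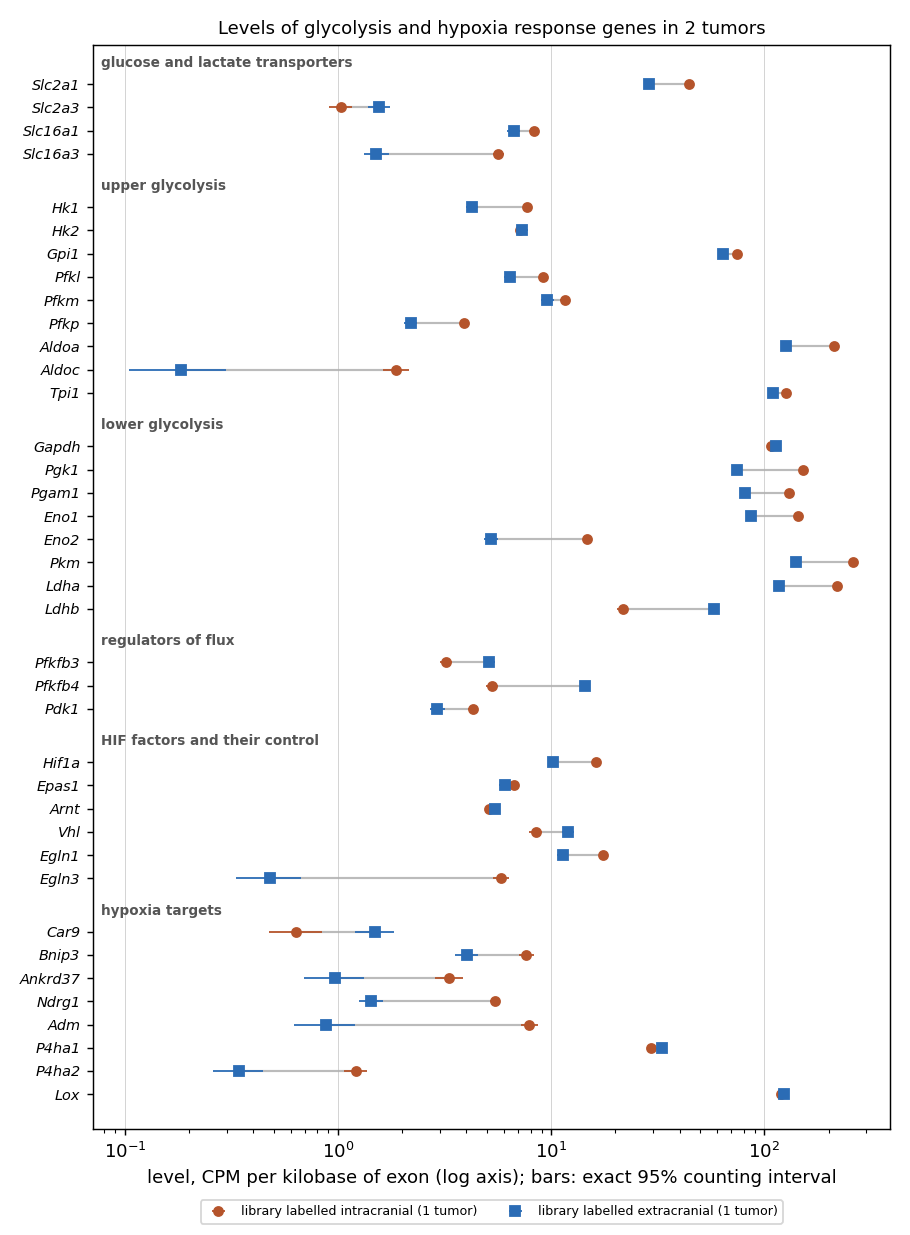
Level of each of the 38 genes in the library labelled intracranial (brown circles) and the library labelled extracranial (blue squares), in CPM per kilobase of exon on a log axis, 1 tumor each, with bars for the exact 95% counting interval. The enzymes of the main glycolytic steps lie toward the right, Pkm at 262 and 141, and the widest gaps belong to Aldoc, Egln3 and Adm, all lower in the extracranial library.

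Levels are compared between genes per kilobase of summed exon length. On this scale the core enzymes were among the most abundant mRNAs of both tumors. Pkm, which encodes pyruvate kinase of muscle and tumor type and makes pyruvate, was the highest of the 38, at 262 CPM per kb in the intracranial and 141 CPM per kb in the extracranial library. Ldha, Aldoa, Pgk1, Eno1, Pgam1, Tpi1, Gapdh and Lox were also above 70 CPM per kb in both libraries. The median percentile of the 38 genes among expressed genes was 75.3 and 72.8 on this scale. Aldoc was the lowest of all in the extracranial library, at 0.183 CPM per kb, and Car9 the lowest in the intracranial library, at 0.637 CPM per kb.

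Glucose enters through facilitative transporters, and lactate leaves through monocarboxylate transporters. Slc2a1, which encodes GLUT1, the glucose transporter most used by tumors, was at 155 CPM in the intracranial and 101 CPM in the extracranial library, a log2 ratio of -0.62 (95% interval -0.68 to -0.55). Slc2a3, a high-affinity glucose transporter common in neurons and white blood cells, went the other way at a far lower level, with 7.45 and 11.3 CPM and a log2 ratio of 0.60 (0.35 to 0.84). Of the white blood cell lists, macrophage genes summed to 5853 and 13227 CPM and neutrophil genes to 740 and 58.7 CPM, in opposite directions. Which cells made the transcripts of the neutrophil list was not tested. Neither glucose transporter passed the 2-fold limit, but the balance of the pair moved: Slc2a3 was 2.27% of the summed level per kb of both genes in the intracranial and 5.12% in the extracranial library.

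The lactate transporters split as well. Slc16a1, a widely used monocarboxylate carrier that works in both directions, was at 36.7 and 29.6 CPM, a log2 ratio of -0.31 (-0.44 to -0.18). Slc16a3, the carrier that glycolytic cells use for lactate export and a known hypoxia target, was at 1042 counts in the intracranial and 215 in the extracranial library, or 30.0 and 8.03 CPM, 3.73-fold lower in the latter with a log2 ratio of -1.90 (-2.12 to -1.69). Its share of the pair per kb was 40.5% and 18.4%.

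The 17 glycolytic enzymes from hexokinase to lactate dehydrogenase summed to 5672 CPM in the intracranial and 3741 CPM in the extracranial library, and their median log2 ratio was -0.73. The interval lay below equality for 14 of them and above it for Gapdh and Ldhb, and it spanned equality for Hk2. Most steps of the chain were thus lower in the extracranial library by less than 2-fold, and 3 of the 17, Aldoc, Eno2 and Ldhb, passed the limit in either direction, where 15.6% of all tested genes did.

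In the upper part of the chain, which spends ATP, Hk1, the hexokinase of most tissues, was at 66.0 and 36.2 CPM, a log2 ratio of -0.86 (-0.97 to -0.75). Hk2, the hexokinase typical of muscle and of tumors, was at 42.7 and 43.6 CPM, with an interval of the log2 ratio from -0.08 to 0.14. Hk2 therefore made up 48.1% of the pair per kb in the intracranial and 63.3% in the extracranial library. Gpi1, which turns glucose phosphate into fructose phosphate, was close to even at 478 and 412 CPM, a log2 ratio of -0.22 (-0.25 to -0.18). The 3 phosphofructokinase genes, whose products make up the main control step, were all lower in the extracranial library without passing 2-fold. Pfkl, the liver form, was at 60.8 and 42.6 CPM with a log2 ratio of -0.52 (-0.62 to -0.41), and Pfkm, the muscle form, at 38.8 and 32.1 CPM with a log2 ratio of -0.28 (-0.40 to -0.15). Pfkp, the platelet form, was at 52.4 and 29.4 CPM with a log2 ratio of -0.83 (-0.95 to -0.71). Per kb, Pfkm was the most abundant of the 3 in both, with 47.2% and 52.8% of the family, an order that depends on the length correction, since Pfkl had the most counts of the 3 in both libraries.

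Aldolase cleaves the doubly phosphorylated sugar, and triose phosphate isomerase interconverts its products. Aldoa, the muscle-type aldolase, was at 619 and 369 CPM, a log2 ratio of -0.75 (-0.78 to -0.71). Aldoc, the brain-type aldolase, was at 212 counts in the intracranial and 16 counts in the extracranial library, or 6.10 and 0.598 CPM, which is 10.2-fold lower with a log2 ratio of -3.35 (-4.18 to -2.62). It was a minor part of the family in both, with 0.87% of the aldolase level per kb in the intracranial and 0.14% in the extracranial library. Astrocytes are where Aldoc is best known in brain. The genes of the astrocyte list summed to 249 and 53.8 CPM, most of it Gja1, with Aqp4 and Gjb6 at 0 in the extracranial library. Keratinocyte genes summed to 21530 and 3.10 CPM, and which cells made the transcripts of the astrocyte list was not tested. Tpi1, the isomerase, was at 349 and 304 CPM and close to even, with a log2 ratio of -0.20 (-0.24 to -0.16).

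The lower part of the chain yields ATP and ends in pyruvate and lactate. Gapdh, the dehydrogenase at the head of this part and a common reference gene in expression work, was at 446 and 470 CPM, the most even of the enzymes after Hk2, with a log2 ratio of 0.07 (0.04 to 0.11). Pgk1, the next enzyme, was at 340 and 166 CPM, 2.05-fold lower in the extracranial library, with a log2 ratio of -1.03 (-1.08 to -0.98). Its interval spanned the 2-fold limit and so it was not called. When the counts of its near-identical copies, Pgk1-rs7 (5304 and 1861 counts) and Pgk1-ps1 (180 and 67), were added to its own 11827 and 4450, the log2 ratio was -1.06 (-1.11 to -1.02) and the limit was passed. Pgam1, a phosphoglycerate mutase, was at 259 and 161 CPM, a log2 ratio of -0.68 (-0.74 to -0.63).

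The enolases and pyruvate kinase were also lower in the extracranial library. Eno1, the enolase of most tissues, was at 774 and 468 CPM, a log2 ratio of -0.73 (-0.76 to -0.70). Eno2, the enolase of neurons and endocrine cells and also a known HIF target, was at 2417 counts in the intracranial and 658 in the extracranial library, or 69.6 and 24.6 CPM, 2.83-fold lower with a log2 ratio of -1.50 (-1.63 to -1.38). The 10 neuron genes summed to 87.4 and 142 CPM. Of these, 3 were called higher in the extracranial library and 2 in the intracranial library, and their part in the result was not tested. Pkm was at 1309 and 705 CPM, a log2 ratio of -0.89 (-0.92 to -0.87), and gene counts cannot separate its alternatively spliced forms.

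The genes of the lactate dehydrogenase subunits differed in opposite directions. Ldha, the subunit that favours the making of lactate, was at 25269 counts in the intracranial and 10319 in the extracranial library, or 727 and 386 CPM, a log2 ratio of -0.92 (-0.95 to -0.88). Ldhb, the subunit of heart muscle that favours the use of lactate, was at 1182 and 2445 counts, or 34.0 and 91.4 CPM, which is 2.69-fold higher in the extracranial library with a log2 ratio of 1.43 (1.32 to 1.53). Ldhb thus held 8.98% (8.50 to 9.47) of the summed level per kb in the intracranial and 33.3% (32.3 to 34.3) in the extracranial library. The ratio of Ldhb to Ldha was 5.07-fold higher in the extracranial library.

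**Figure D2:**
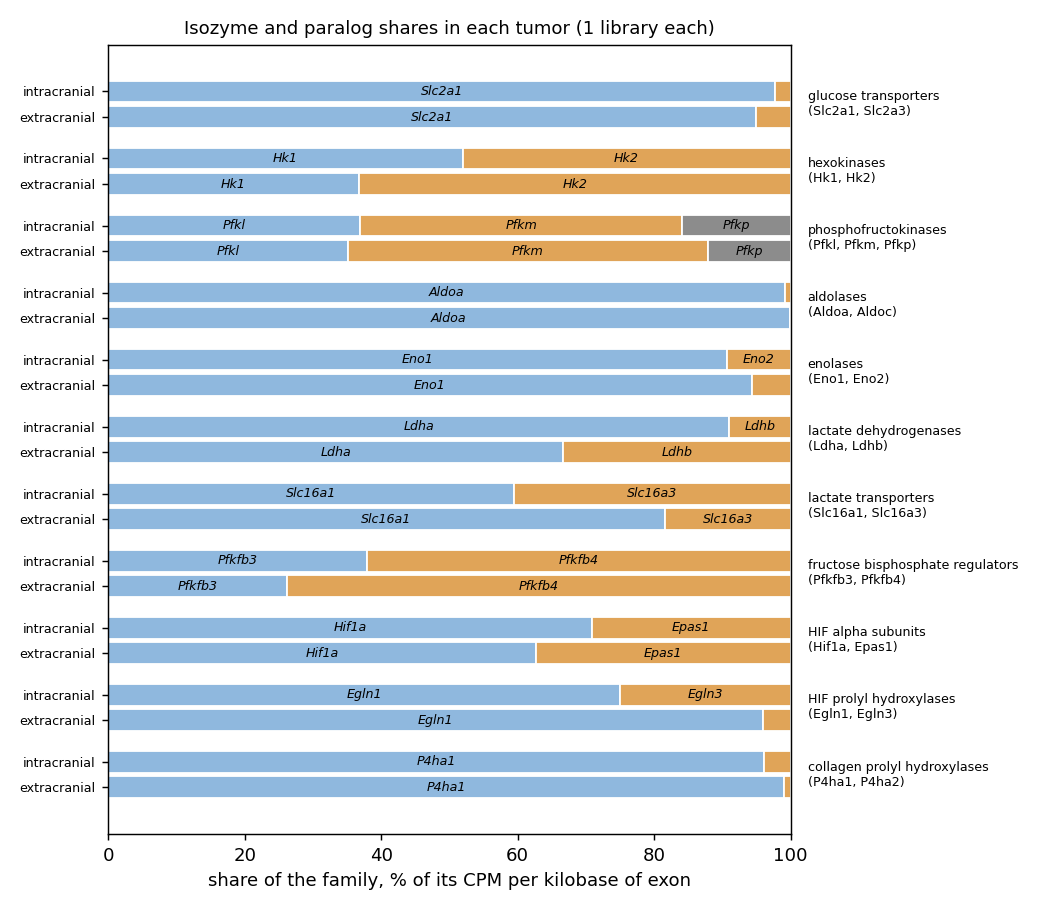
Share of each isozyme or paralog in its family, in percent of the family's summed CPM per kilobase of exon, as stacked bars for the library labelled intracranial and the library labelled extracranial, 1 tumor each. The Ldhb part widens from 8.98% to 33.3%, while the Egln3 part narrows from 25.0% to 4.04% and the Slc16a3 part from 40.5% to 18.4%.

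Over 11 families with 13 pairs of members, the balance within the pair differed between the libraries beyond counting error in all 13, and by an interval beyond 2-fold in 5: the pairs of Aldoc with Aldoa, Ldhb with Ldha, Slc16a3 with Slc16a1, Egln3 with Egln1 and P4ha2 with P4ha1. A shared scaling factor cancels in these ratios, so they do not depend on the normalization of the libraries. Aldoc, Slc16a3, Egln3 and P4ha2 were the members with the smaller share in the extracranial library, and Ldhb was the one with the larger share. The same counts were not taken over other pairs of genes, so the 13 and the 5 have no background. Among single genes, 29.2% of all tested had an interval above equality and 32.2% had one below it. For those with 100 or more counts the shares were 35.7% and 36.0%.

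Some of the core enzymes have processed copies in the mouse genome whose reads are hard to place. Eno1b had 15601 and 7309 counts, equal to 58.0% and 58.4% of those of Eno1. Pgam1-ps2 had 2257 and 1079 counts, 25.1% and 25.0% of those of Pgam1, and Pgam1-ps1 had 375 and 173. Ldha-ps2 had 848 and 328 counts and Aldoart1 had 155 and 67. With the copies added the log2 ratio was -0.72 for Eno1, -0.69 for Pgam1, -0.92 for Ldha and -0.75 for Aldoa. The levels of these enzymes are accordingly uncertain by the size of the copies. Lesser copies with more than 3 counts in a library were Ldha-ps (8 and 3), a second ID with the symbol Aldoa (23 and 9), Aldoart2 (12 and 3), Aldoa-ps4 (12 and 5), Gapdh-ps14 (6 and 12) and Gapdh-ps15 (11 and 8). Gapdhs (37 and 25) and Pgam5 (1144 and 948), which have related names, were counted as well but were not added to any ratio.

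The genes that steer the flux went mainly the other way. Pfkfb3 and Pfkfb4 encode bifunctional enzymes that set the level of the fructose bisphosphate that activates phosphofructokinase. Pfkfb4 was at 893 counts in the intracranial and 1882 in the extracranial library, or 25.7 and 70.3 CPM, 2.74-fold higher in the latter with a log2 ratio of 1.45 (1.34 to 1.57). Pfkfb3 was at 24.3 and 38.8 CPM, a log2 ratio of 0.67 (0.54 to 0.81), so it was higher in the extracranial library too but short of the limit. Pfkfb4 was the more abundant of the pair per kb in both, at 62.1% and 73.8%. Pdk1, the kinase that holds pyruvate back from the mitochondria by switching off pyruvate dehydrogenase, was at 33.4 and 22.7 CPM, a log2 ratio of -0.56 (-0.70 to -0.41).

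**Figure D3:**
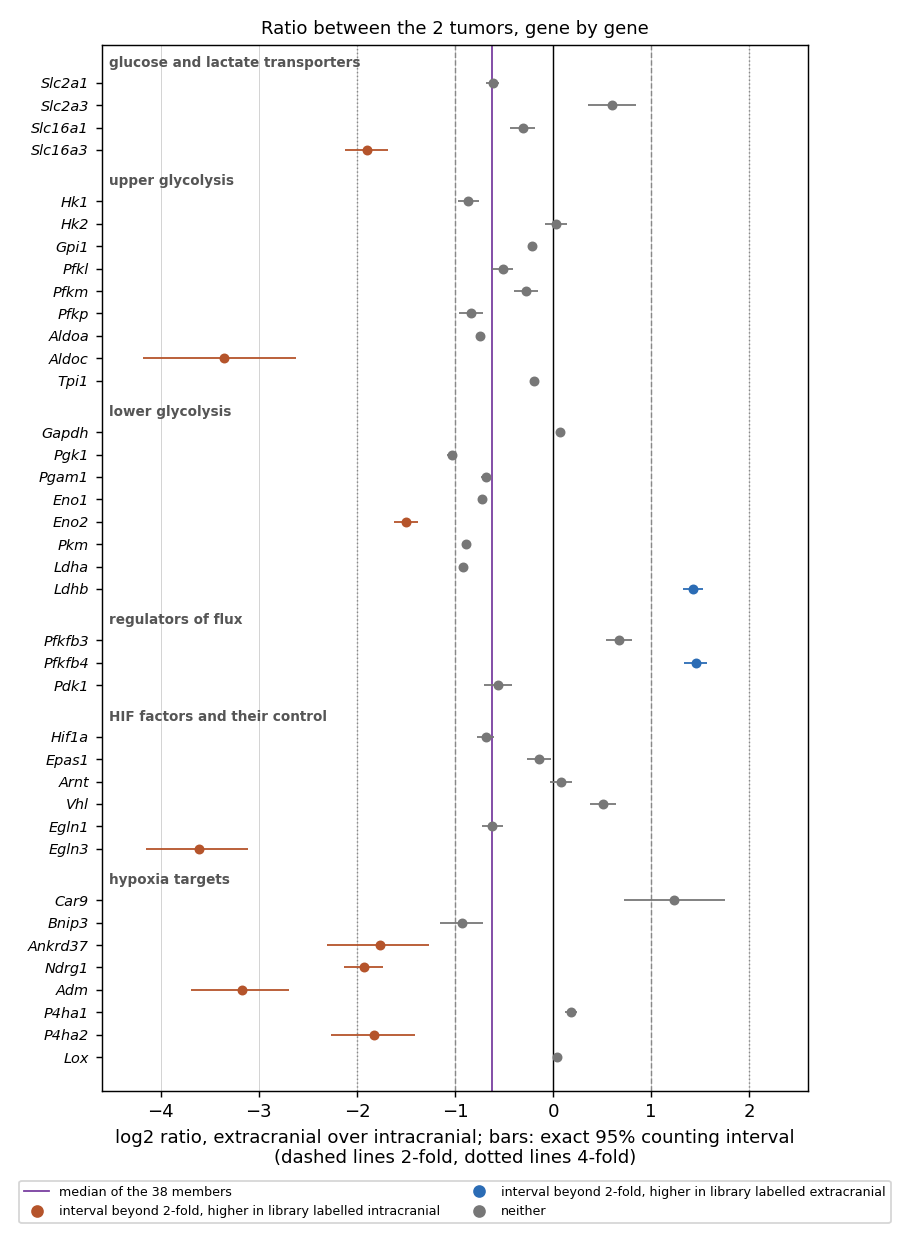
Log2 ratio of the extracranial over the intracranial library for each of the 38 genes, with bars for the exact 95% counting interval, dashed lines at 2-fold and dotted lines at 4-fold. The genes called higher in the intracranial library (8, brown) and in the extracranial library (2, blue) stand out from a body of genes that lies mostly left of equality, around the median of -0.62.

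Of the 6 genes of the oxygen-sensing machinery, Egln3 alone was called (16.7%), near the 15.6% of all tested genes called in either direction. The median log2 ratio of the 6 was -0.38. Hif1a, which encodes the broadly expressed oxygen-labile subunit and is controlled mostly at the protein level, was at 96.1 and 59.8 CPM, a log2 ratio of -0.68 (-0.77 to -0.60). Epas1, which encodes the related alpha subunit prominent in endothelium, was at 37.4 and 33.8 CPM, with a log2 ratio of -0.15 (-0.27 to -0.02). Arnt, the stable partner of both, was at 41.1 and 43.5 CPM with an interval of the log2 ratio from -0.03 to 0.20.

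Vhl, the substrate receptor of the ubiquitin ligase that removes the alpha subunits, was at 25.3 and 35.9 CPM, a log2 ratio of 0.51 (0.37 to 0.64). Egln1, the main prolyl hydroxylase in normal oxygen, was at 62.7 and 40.8 CPM, a log2 ratio of -0.62 (-0.73 to -0.52). Egln3, a prolyl hydroxylase whose own gene is strongly hypoxia-inducible, was at 538 counts in the intracranial and 34 counts in the extracranial library, or 15.5 and 1.27 CPM. That is 12.2-fold lower (8.61 to 17.8), with a log2 ratio of -3.61, the largest difference of the 38. Egln3 made up 25.0% of the Egln pair per kb in the intracranial and 4.04% in the extracranial library, and the ratio of the pair differed by 7.92-fold.

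The 8 hypoxia targets outside glycolysis split into 4 that were called lower in the extracranial library and 4 that were not called, where 9.77% of all tested genes were called lower there. Adm, which encodes the vasodilating peptide adrenomedullin, was at 444 and 38 counts, or 12.8 and 1.42 CPM, with a log2 ratio of -3.17 (-3.69 to -2.69). Ndrg1, a stress-response and differentiation gene, was at 1246 and 252 counts, or 35.9 and 9.42 CPM, 3.81-fold lower with a log2 ratio of -1.93 (-2.13 to -1.73). Ankrd37, a small ankyrin-repeat gene long known as a direct HIF target, was at 177 and 40 counts, or 5.09 and 1.49 CPM, 3.41-fold lower with a log2 ratio of -1.77 (-2.30 to -1.27). In each of these the intracranial library was the high one by a wide margin. P4ha2, a subunit of the prolyl hydroxylase that matures collagen, was at 262 and 57 counts, or 7.54 and 2.13 CPM, 3.54-fold lower with a log2 ratio of -1.82 (-2.26 to -1.41).

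The 4 that were not called did not share a direction. Bnip3, a mitophagy receptor, was at 17.3 and 9.08 CPM, a log2 ratio of -0.93 (-1.15 to -0.71). Car9, which encodes the cell-surface carbonic anhydrase widely used as a mark of hypoxic tumor tissue, had few counts in both, 51 and 92, and was higher in the extracranial library at 1.47 and 3.44 CPM, with a log2 ratio of 1.23 (0.72 to 1.75). P4ha1, the more abundant collagen prolyl hydroxylase subunit, was at 121 and 137 CPM, a log2 ratio of 0.18 (0.12 to 0.25). Lox, which encodes lysyl oxidase and crosslinks collagen, was at 572 and 589 CPM, a log2 ratio of 0.04 (0.01 to 0.07). Because Lox was so abundant, the summed level of the 8 genes was nearly even, 773 and 753 CPM, while their median log2 ratio was -1.35. Within the collagen prolyl hydroxylase pair, P4ha2 was 3.96% and 1.02% of the level per kb.

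Under a stricter limit, with the whole interval beyond 4-fold, 3 of the 38 genes were called higher in the intracranial library, Aldoc, Egln3 and Adm, where 5.41% of all tested genes were, and 0 were called higher in the extracranial library, where 1.78% were. In either direction 7.19% of all tested genes passed. Of the 38, 15 share exon bases with another annotated gene, and among the called genes these are Ankrd37 and Ndrg1, both with partners on the opposite strand. Lrp2bp, which covers 22.7% of the exon bases of Ankrd37, had 2 counts in each library, Ufsp2, which covers 3.70%, had 1340 and 1030, and both partners of Ndrg1 had 0.

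The HIF pair binds a core of 5 letters, ACGTG or GCGTG. Promoter windows of RefSeq on GRCm38.p6, 300 bases from 250 before to 50 after the start of a transcript, were at hand for 34 of the 38 genes, in 47 windows. One of these cores, on either strand, stood in 30 of the 34 genes (88.2%), against 46.7% of the 27025 genes of the whole table, and in 80.9% of the member windows against 43.8% of all 32851 windows. The called and the uncalled genes held it in like shares, 8 of 9 and 22 of 25. Eno2 was the called gene with no match in its window. Such a match is a description of letters, not a bound site. The shares over the whole table were not narrowed to expressed genes or to windows of like base content, so they are not a matched background. The windows of 5 called genes are shown, 3 that were higher in the intracranial library and both that were higher in the extracranial one. The 3 were picked by name among called genes with a single window, not by a rule. Egln3 held only ACGTG, Ldhb and Pfkfb4 held only GCGTG, and P4ha2 and Ankrd37 held both forms. Each reads 5′ to 3′ on the strand of the gene, and capitals mark ACGTG or GCGTG, or CACGT or CACGC where the core is on the other strand.
Egln3: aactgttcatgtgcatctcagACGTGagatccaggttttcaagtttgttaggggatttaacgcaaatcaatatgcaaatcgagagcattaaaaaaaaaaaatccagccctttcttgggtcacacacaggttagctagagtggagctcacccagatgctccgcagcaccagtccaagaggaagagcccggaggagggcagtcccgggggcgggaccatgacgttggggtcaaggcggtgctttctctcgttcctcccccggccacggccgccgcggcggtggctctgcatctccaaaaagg
P4ha2: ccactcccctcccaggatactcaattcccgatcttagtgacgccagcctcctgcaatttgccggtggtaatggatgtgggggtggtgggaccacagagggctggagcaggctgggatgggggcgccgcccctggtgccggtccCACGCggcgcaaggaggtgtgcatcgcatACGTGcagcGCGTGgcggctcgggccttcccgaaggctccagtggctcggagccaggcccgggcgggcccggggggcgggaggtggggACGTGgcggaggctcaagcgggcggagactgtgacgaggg
Ankrd37: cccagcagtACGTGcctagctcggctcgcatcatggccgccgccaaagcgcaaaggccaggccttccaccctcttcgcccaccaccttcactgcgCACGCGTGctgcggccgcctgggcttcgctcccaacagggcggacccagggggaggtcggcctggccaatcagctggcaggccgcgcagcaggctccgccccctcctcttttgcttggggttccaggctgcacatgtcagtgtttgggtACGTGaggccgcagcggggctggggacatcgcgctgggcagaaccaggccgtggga
Ldhb: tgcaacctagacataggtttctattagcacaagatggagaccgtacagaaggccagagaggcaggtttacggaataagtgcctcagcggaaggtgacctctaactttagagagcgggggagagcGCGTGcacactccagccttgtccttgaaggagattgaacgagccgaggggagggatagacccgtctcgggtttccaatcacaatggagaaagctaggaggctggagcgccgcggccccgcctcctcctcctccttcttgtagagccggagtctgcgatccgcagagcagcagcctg
Pfkfb4: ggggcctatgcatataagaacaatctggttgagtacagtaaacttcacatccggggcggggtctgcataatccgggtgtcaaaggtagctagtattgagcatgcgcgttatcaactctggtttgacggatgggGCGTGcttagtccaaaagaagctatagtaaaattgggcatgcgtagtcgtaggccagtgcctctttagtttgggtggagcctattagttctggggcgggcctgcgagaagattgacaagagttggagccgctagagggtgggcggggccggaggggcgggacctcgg
The P4ha2 window lies at chr11:54100674-54100973 on the plus strand and the Pfkfb4 window at chr9:108991652-108991951 on the plus strand. Those of Egln3 (chr12:54203825-54204124), Ankrd37 (chr8:45999801-46000100) and Ldhb (chr6:142507908-142508207) are on the minus strand. P4ha2 and Ankrd37 held 4 matches each, and Egln3, Ldhb and Pfkfb4 held 1 each.

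Genes of the same pathways outside the 38 were read from lists drawn up for this purpose. Of 36 other HIF targets, 9 (25.0%) were called higher in the intracranial library and 3 (8.33%) in the extracranial library, against 9.77% and 5.86% of all tested genes, and their median log2 ratio was -0.51. Car12, another membrane carbonic anhydrase, was at 1395 counts in the intracranial and 16 in the extracranial library, 67.1-fold lower with a log2 ratio of -6.07 (-6.88 to -5.36), opposite to Car9. Stc2, a secreted glycoprotein, had 332 and 38 counts (log2 ratio -2.75, -3.27 to -2.26), and Ddit4, an inhibitor of mTOR signalling, had 3017 and 370 (-2.65, -2.81 to -2.49). Ak4, a mitochondrial adenylate kinase, had 284 and 50 counts (-2.13, -2.59 to -1.69). These 4 shared the direction of Egln3 and Adm. The 3 that were higher in the extracranial library were Angptl4, a lipase inhibitor, at 1075 and 2683 counts (log2 ratio 1.70, 1.59 to 1.80), and 2 enzymes of the collagen matrix, Loxl2 at 234 and 521 counts (1.53, 1.31 to 1.76) and Plod2 at 1089 and 2020 counts (1.27, 1.16 to 1.38).

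Of 8 other regulators of the pathway, 0 were called in either direction, where 15.6% of all tested genes were. Their median log2 ratio was -0.01, and the interval lay above equality for 3 and below it for 1. Among 12 further genes of glycolysis and lactate with enough counts, the median log2 ratio was -0.18 and 1 was called each way. Hk3, a hexokinase of myeloid cells, had 668 and 1435 counts (log2 ratio 1.48, 1.35 to 1.61), beside macrophage genes at 5853 and 13227 CPM and neutrophil genes at 740 and 58.7 CPM. The cells behind the neutrophil list were not tested. Slc2a4, the insulin-responsive glucose transporter of muscle and fat, had 63 and 5 counts (log2 ratio -3.28, -4.95 to -1.98), beside skeletal muscle genes at 55.7 and 12.8 CPM.

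**Figure D4:**
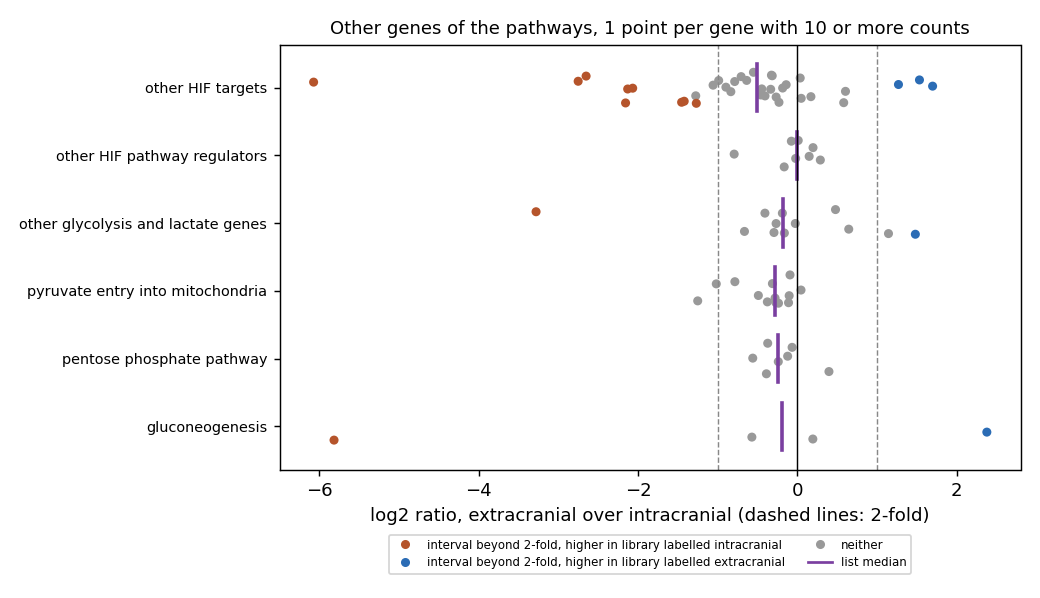
Log2 ratio of the extracranial over the intracranial library for other genes of the pathways, 1 point per gene with 10 or more counts, by list, with a bar at each list's median and dashed lines at 2-fold. The other HIF targets reach from -6.07 (Car12) to 1.70 (Angptl4) with a median of -0.51, while the other HIF pathway regulators centre on -0.01, and Fbp2 in the lowest list is drawn with its single extracranial count set to the floor of 3.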

How the data were processed

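RNA sequencing of 2 tumors was used, 1 per location label. The deposited values are raw read counts per Ensembl gene, which the authors made by aligning single reads with STAR 2.7.9a and counting with featureCounts. The strand setting and the treatment of reads with several alignments were not given in the sources used here. Symbols (94.0% of IDs) and summed exon lengths came from GENCODE release 21 (GRCm38), an older build than that of the counts. The exon bases shared between genes were taken from the exon coordinates and strands of the same release. The only coordinates printed are those of the RefSeq promoter windows.

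Counts were scaled with TMM (edgeR 4.0.16, R 4.3.3), with factors of 1.006 and 0.994. With 1 library per location no quasi-likelihood test could be fitted. The ratio between the libraries got a 95% interval for every gene that had at least 10 counts in all (Clopper-Pearson, exact, conditional on the gene's total), and calls needed all of that interval past 2-fold. Intervals on levels and shares were exact too. Those on the balance within a pair were not exact, but a normal approximation on the log odds ratio of the counts. Counts of 3 or fewer were set to 3 in ratios. The reads carry no molecular identifiers, so intervals cover counting error only and calls compare these libraries, not the locations. The steps were tested on simulated data.

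The members and lists were chosen with earlier results of these data known. Named were all 38 genes, at most 4 called genes a direction in each related list (those whose interval lay farthest from equality), the most abundant cell markers, and copies with more than 3 counts. Keratinocyte and astrocyte markers at 0, and Lrp2bp and Ufsp2, were named after their values were seen. Alternatives were DESeq2 1.42.0 size factors, total counts, the upper quartile, a 4-fold limit, other count minimums, a prior count, levels without length, and added copies.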

Additional observations from a re-analysis of the deposited data

How the results depend on the processing

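No paired analysis was possible because the tumors carry no shared replicate number to pair, with 1 library a location. For the same reason no library could be left out, and counting error is the error measured. DESeq2 size factors, total counts and the upper quartile shifted every log2 ratio by 0.02, -0.02 and 0.04, and left the counts of called genes within 1.5 times those reported. No log2 ratio changed sign among the called genes under these scalings. The shifts carried an interval bound across equality for Lox (0.01, total counts), Epas1 (-0.02, upper quartile) and Arnt (-0.03, upper quartile). Whether these genes were counted as off equality thus depended on the scaling. With a 4-fold limit, the count of the 38 genes fell from 8 to 3 (higher in the intracranial library) and from 2 to 0 (higher in the extracranial library), and that of the other HIF targets from 9 to 3 and from 3 to 0. Without the correction for exon length, Ldhb held 4.47% and 19.2% of lactate dehydrogenase in place of 8.98% and 33.3%, Slc2a3 held 4.58% and 10.04% of its pair in place of 2.27% and 5.12%, P4ha2 held 5.89% and 1.53% in place of 3.96% and 1.02%, and Pfkp held 34.5% and 28.3% of its family in place of 15.9% and 12.1%. Pfkm then no longer led its family, with 1349 counts against 2114 for Pfkl and 1822 for Pfkp in the intracranial library and 858 against 1139 for Pfkl and 788 for Pfkp in the extracranial one. Without this correction, the median percentile of the 38 genes was 80.8 and 79.5 in place of 75.3 and 72.8. With the copies added, an alternative chosen after seeing the data, Pgk1 joined the genes higher in the intracranial library, which made 9.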

Other observations

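Of 13 genes for the entry of pyruvate into mitochondria, among them the pyruvate carrier and the pyruvate dehydrogenase complex with kinases and phosphatases, 0 were called beyond 2-fold in either direction (15.6% of all tested genes were), the median log2 ratio was -0.28, and 10 had an interval below equality. Of 7 genes of the pentose phosphate pathway, which supplies NADPH and ribose, 0 were called and the median was -0.24. Among 4 genes of gluconeogenesis with enough counts, 2 were called, the fructose bisphosphatases, in opposite directions. Fbp1, the liver form, was at 22 counts in the intracranial and 88 in the extracranial library, a log2 ratio of 2.38 (95% interval 1.69 to 3.12). Fbp2, the muscle form, was at 219 counts and 1 count, and its log2 ratio lay between -12.71 and -4.90, beside skeletal muscle genes that summed to 55.7 and 12.8 CPM.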
